A study of Mus musculus with 20 samples.

Results

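Chemokines are small secreted proteins that direct leukocyte movement, and they were described here together with their receptors in mouse plantaris, a fast hindlimb muscle. Members were the protein-coding genes of the count tables whose symbol is Ccl, Cxcl, Ccr or Cxcr followed by a number, with or without a letter after it, or is Cx3cl1, Cx3cr1, Xcl1, Xcr1 or Ackr1 to Ackr4. This rule gave 55 genes of 54532, of which 33 encode ligands and 22 encode receptors, and it used no measured value. Male C57BL/6J mice 5 months old had either sham surgery or mechanical overload (MOV), in which part of the gastrocnemius and soleus was removed from both legs so that the plantaris had to carry more load. At the same operation every muscle was injected with lentivirus carrying the TurboGFP reporter. The left plantaris got control virus and the right plantaris got virus coding a mimic of miR-1, a microRNA abundant in striated muscle, so that virus and leg side cannot be told apart. Muscles were collected after 10 days, and the 4 groups, named by surgery and virus (sham or MOV, control or mimic), held 5 libraries each. No muscle without virus was analysed here, so each comparison is between injected muscles, and RNA came from the whole muscle, in which fewer cells of a type and less RNA per cell cannot be told apart. Each mouse gave both legs, so that control and mimic libraries of a surgery share mice, but the labels do not say which libraries share one. Batches of animals or days are not given in the sources used here, and p-values measure the spread between these libraries.

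A chemokine binds a G protein-coupled receptor on a leukocyte and moves the cell along the gradient, and most receptors of inflammation accept several ligands. Ccr2 recruits monocytes to injured muscle, Cxcr3 guides T cells, Cxcr2 guides neutrophils, and Cxcl12 with Cxcr4 retains progenitors and guides muscle precursors. Atypical receptors (Ackr genes) take chemokines up without G protein signalling and so clear or transport them.

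Libraries held 12036360 to 23056525 counts in total, with a median of 16940547.5. Values below are CPM (counts scaled to library size) after TMM normalization over the 20 libraries. Genes of muscle fibres (6 of 6 with counts) summed to 101950 to 159740 CPM in sham control, 100420 to 158250 in sham mimic, 75230 to 140480 in MOV control and 58915 to 114810 in MOV mimic, as the tissue label says. Sham control 1 and sham mimic 1 stood apart, with summed fibro-adipogenic markers at 944 and 1342 CPM against 2398 to 8892 in the other libraries. They were also the lowest of their group for 26 and 22 of the 39 measurable members, so that counts and medians over members, and the fold changes of some leading genes, are given without them as well.

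Because the virus codes a mimic of miR-1, the seed and its matches among members are shown first. By qPCR, the paper reports no rise of miR-1 in sham muscles given the mimic. In MOV it reports a smaller fall of miR-1 with the mimic than with control virus. miR-1 shares its seed with miR-206, whose mature sequence stands in RefSeq (GRCm38.p6) at chr1:20679055-20679076 on the plus strand. It is printed with the seed, bases 2 to 8, in capitals.
mmu-miR-206-3p: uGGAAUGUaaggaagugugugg
The letters opposite the seed, ACATTCC, were found in the longest annotated 3′ UTR of 4 of 54 members (7.41%) and of 9.12% of 20007 genes. Ccl3, Cxcr4 and Xcr1 were among them, and their matches are printed with 9 bases on either side and the match in capitals.
Ccl3 site: agccccggaACATTCCtgccacctg
Cxcr4 site: agaaactgaACATTCCagaatgtgt
Xcr1 first site: tcatgcaccACATTCCctttcgcag
Xcr1 second site: catgggctgACATTCCtatgtactg
The Cxcr4 match was followed by an A, the base that extends it to the longest class of seed site. In MOV mimic against MOV control, the log2 fold changes were -0.01 ± 0.31 for Cxcr4, 0.25 ± 1.004 for Ccl3 and 0.29 ± 0.45 for Xcr1 (± SE), so that none of these 3 was lower in the mimic muscles by more than its SE.

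Of the 55 members, 39 were measurable, that is, they passed the expression filter of edgeR over the 20 libraries, and these were 24 ligands and 15 receptors. Their totals over the 20 libraries ran from 134 to 37544 counts, and 26 had a count in every library. The 16 others had 0 to 198 counts in total, with Ccl19 and Ccl26 listed at 0 throughout. Among them were the receptors Ccr3 of eosinophils, Ccr4, Ccr6 and Ccr8 of T cell subsets, Cxcr1 and Cxcr2 of neutrophils and Cxcr5 of B cells, and the ligands Xcl1, Ccl17 and Ccl20. Hence the eosinophil chemokines Ccl11 and Ccl24, the neutrophil chemokines Cxcl1, Cxcl2 and Cxcl5, and Cxcl13 were measurable without their main receptor, and Xcr1 without its ligand. For Ccr7 the only ligand analysed here was Ccl19. Cxcl11 is annotated as a transcribed pseudogene in RefSeq and did not meet the rule. Ccl28, Ccl27b and the Ccl21 genes were not analysed here.

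No member had an adjusted p under 0.05 in any of the 5 comparisons (edgeR's quasi-likelihood test, two-sided, Benjamini-Hochberg over all genes tested). The test called 0.00668% of 14974 genes in MOV control against sham control, which was 1 gene, and 0% in each of the others. At an unadjusted p under 0.05 the members were described against the share of all genes. In MOV control against sham control, 3 of 33 members tested were higher, where 9.06% of all genes were, and 6 were lower, where 9.15% were. In MOV mimic against sham mimic, 10 of 34 were higher against 7.31% of all genes, and 3 lower against 6.08%. In MOV mimic against MOV control, 7 of 34 were higher against 2.46%, and 0 lower against 1.75%. Both counts of members higher in MOV mimic include Ccr10, which passed the filter only in fits that held MOV mimic. In sham mimic against sham control, 0 of 33 were past this threshold in either direction, against 0.563% higher and 1.16% lower over all genes. The median log2 fold change of the members was 0.17 for MOV in control muscles and 0.84 for MOV in mimic muscles, where all genes had medians of 0.04 and 0.017. It was 0.53 for the mimic within MOV, with 28 of 34 members above 0, where all genes had a median of -0.0053 and 49.3% were above 0. It was -0.0031 for the mimic within sham, with 16 of 33 members above 0, against 0.0011 for all genes.

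These counts and medians depended on single libraries. For MOV in control muscles the median was -0.15 without sham control 1, with 2 of 35 members higher and 8 lower, where 7.35% and 6.37% of all genes were. It ran up to 0.33, without sham control 4. It was -0.11 without MOV control 2 and 0.03 without sham control 3, and 5 members were higher without MOV control 3, against 8.22% of all genes. For MOV in mimic muscles the median was 0.58 without sham mimic 1, with 9 of 37 members higher and 4 lower, where 5.04% and 3.64% of all genes were. It was lowest without MOV mimic 2, at 0.53 with 7 of 36 higher, against 5.08% of all genes. Without MOV mimic 4, 5 were lower, against 5.44% of all genes. With limma voom this median was 0.54, and that for the mimic within MOV was 0.22. For the mimic within MOV, 4 of 35 members were higher without MOV mimic 2, against 1.58% of all genes, and 11 of 36 without MOV mimic 3, against 3.31%. For the mimic within sham the median was -0.12 without sham control 1, 0.15 without sham mimic 1 and -0.21 without sham mimic 5. Without sham mimic 1 the log2 fold change for MOV in mimic muscles was 3.13 for Cxcl9, 2.26 for Cxcl10, 1.04 for Ccr2, 2.65 for Ccl5, 1.77 for Cxcr6, 1.05 for Cxcl16, 1.19 for Xcr1 and -0.73 for Cxcl12. Without sham control 1 that for MOV in control muscles was 1.4 for Cx3cl1, -1.34 for Ccl11, -0.77 for Cxcl12, -1.02 for Ackr3 and -2.1 for Ackr2. All 30 differences of members with an unadjusted p under 0.05 kept their sign when any 1 library was left out. They were chosen by this p in the same libraries, so that a change of sign was unlikely from the start.

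**Figure D1:**
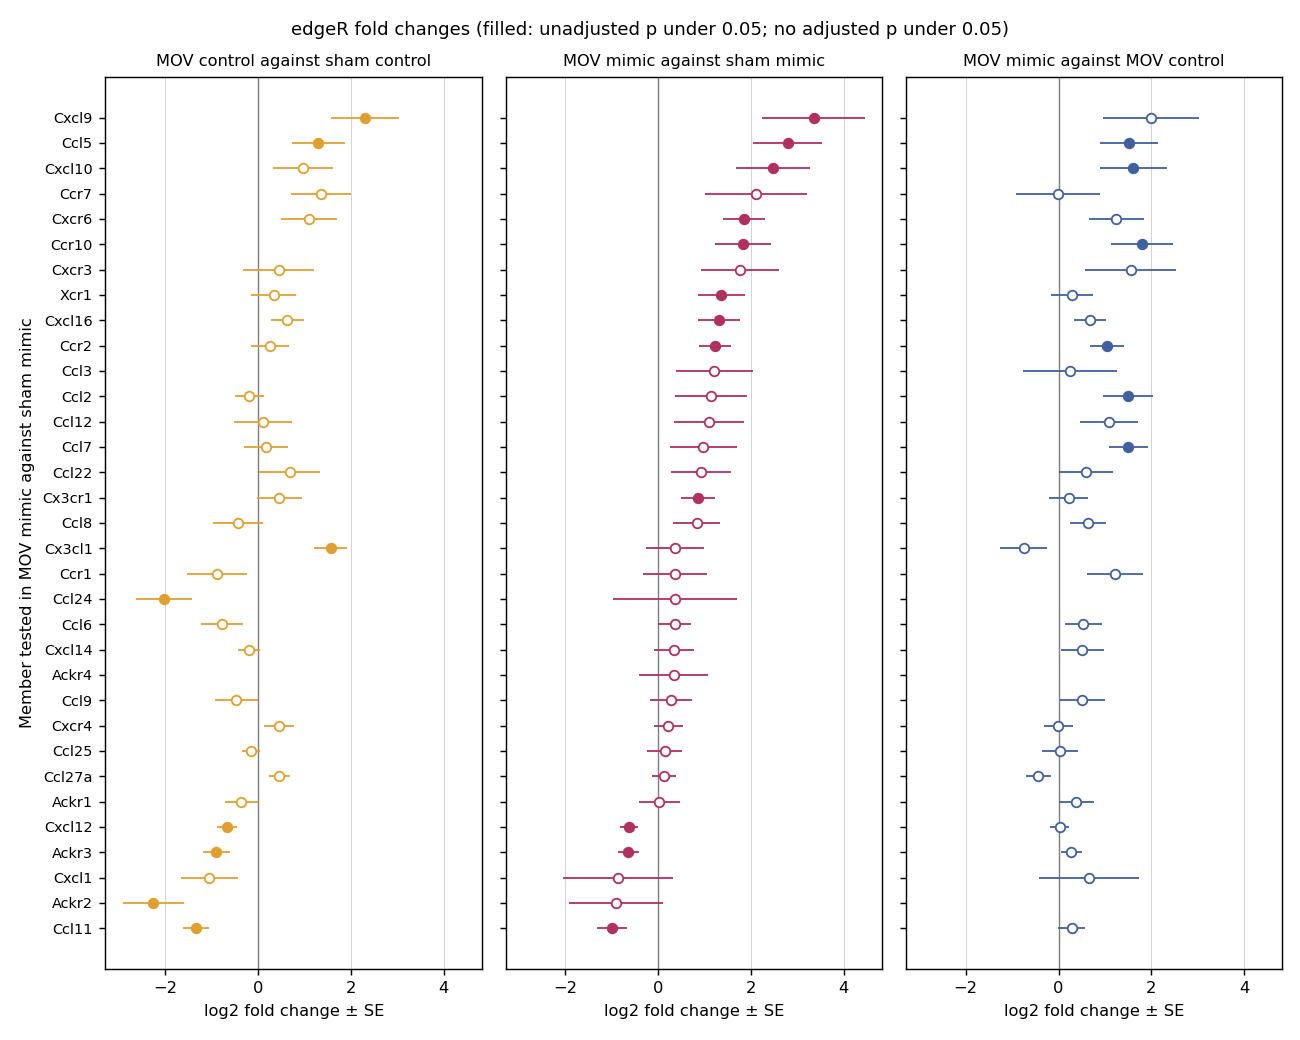
Log2 fold change (horizontal axis, bars are SE of the edgeR fit) of members tested in MOV mimic against sham mimic, in 3 comparisons. Filled points have an unadjusted p under 0.05 and no point has an adjusted p under 0.05, a missing point is a gene that did not pass the filter in that comparison, and Cxcl9, Ccl5 and Cxcl10 lie farthest to the right for MOV in mimic muscles.

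With DESeq2, an alternative test of the same counts, members passed an adjusted p of 0.05. In MOV control against sham control these were Cx3cl1, which was higher, and Ccl11, Cxcl12, Ackr2, Ackr3 and Ccl24, which were lower, or 6 of 33 (18.2%), where DESeq2 called 6.1% of all genes. In MOV mimic against sham mimic they were Ccl5, Ccr2 and Cxcr6, all higher, or 3 of 34 (8.82%) against 1.49% of all genes. In MOV mimic against MOV control, DESeq2 without a replicate block called 0 of 34 members and 0.0197% of all genes, and it called 0 members for the mimic within sham and for the interaction. Groups that did not overlap in CPM were found for Cx3cl1 (higher) and Ackr2 (lower) in MOV control against sham control, where 1.94% and 2.93% of all genes were so separated. Cxcr6 was separated in MOV mimic against sham mimic (higher), where 0.811% of all genes were, and 0 members were separated and lower, against 2.03%. No member was separated in MOV mimic against MOV control (all genes 0.355% higher and 0.401% lower) or in sham mimic against sham control (all genes 0.122% and 0.237%). An exact permutation p under 0.05 was found for 8 of the 39 measurable members in MOV control against sham control, where 16.3% of 16166 measurable genes had one, and for 7 in MOV mimic against sham mimic, where 12.9% had. It was found for 5 members in MOV mimic against MOV control and 0 in sham mimic against sham control, against 4.61% and 2.62% of genes.

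Levels of different genes were compared per kb of exon. Averaged over 20 libraries, Ccl8, a monocyte chemokine of the Ccl2 cluster on chromosome 11, had the highest level at 67.1 CPM per kb, and Cxcl14 (16.9), Cxcl9 (16.3), Ccl6 (13.4), Cxcl12 (13.1) and Ccl7 (12.6) followed. The receptor with the highest level was Ackr3, a scavenger of Cxcl12, at 8.77 CPM per kb, followed by Ccr2 at 4.71, Ackr1 at 4.58 and Cxcr4 at 4.17. In sham control, Ccr2 at 3.38 ± 1.49, Ackr1 at 4.9 ± 2.44 and Cxcr4 at 3.47 ± 1.14 CPM per kb (SD, n = 5) lay within each other's spread, and Ackr3 stood above them at 11.1 ± 4.44. The order of the mean ligand levels was not the same in every group. In sham control, Ccl8 (77.3) was followed by Ccl6 (17.7), Cxcl14 (16.7), Cxcl12 (16.3) and Ccl11 (11.5 CPM per kb), and in MOV mimic by Cxcl9, Ccl7 (22.9) and Cxcl14 (20.3 CPM per kb). Cxcl9 ran from 2.45 ± 1.99 CPM per kb in sham control to 46.3 ± 55.7 in MOV mimic, where its SD exceeded its mean. The lowest measurable members were Ccr9 (0.176), Ackr2 (0.335) and Cxcl13 (0.352 CPM per kb).

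**Figure D2:**
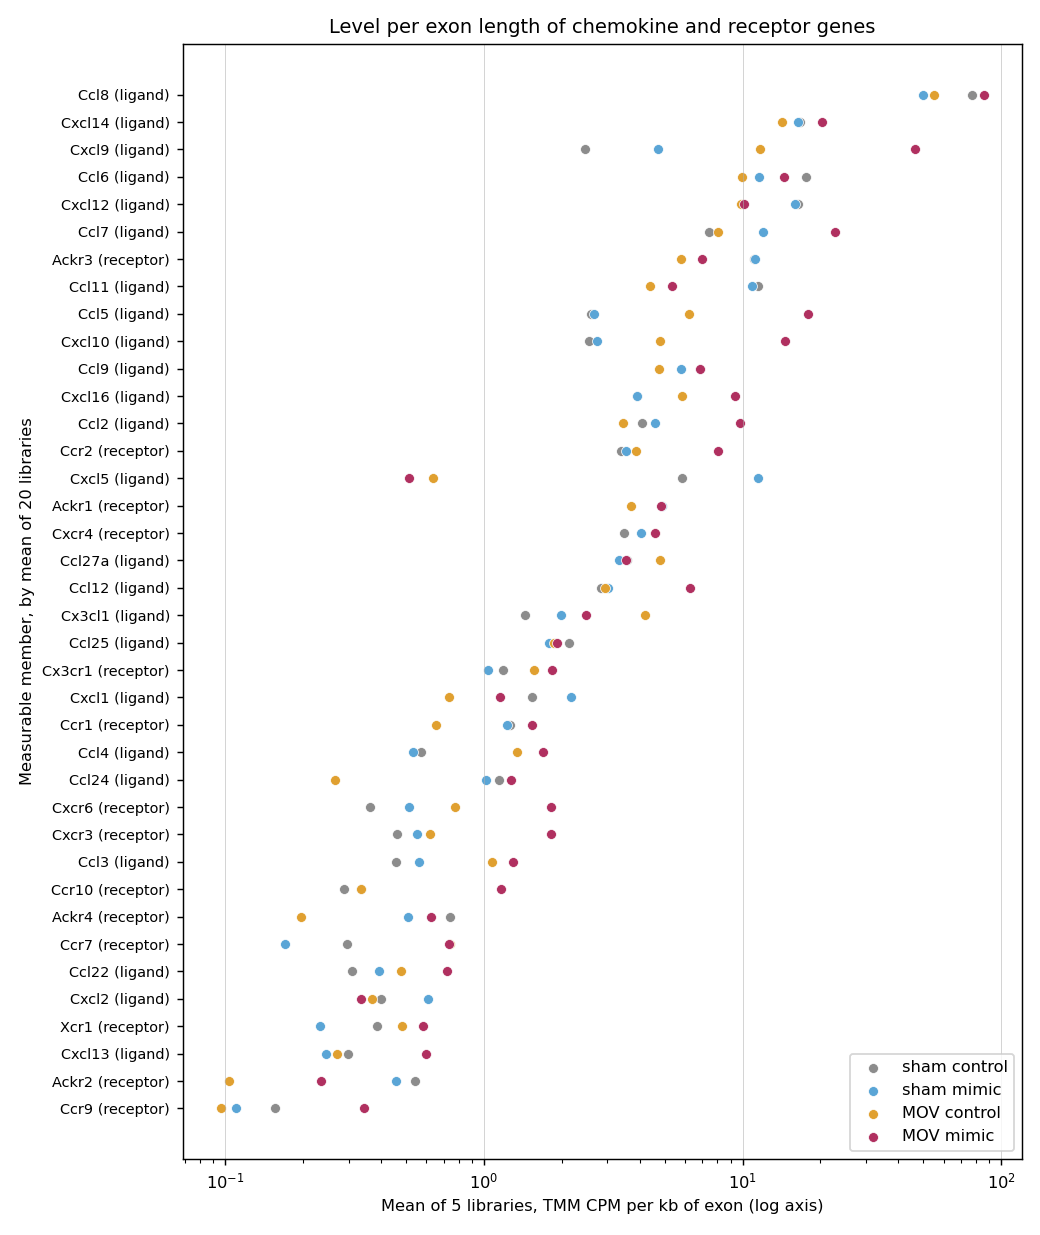
Mean level of measurable members in each group (5 libraries), in TMM CPM per kb of exon on a log axis, ordered by the mean of 20 libraries. Ccl8 is highest in every group, Cxcl9 spreads widest to the right in MOV mimic, and Cxcl5 is lower in both MOV groups than in both sham groups.

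The monocyte receptor Ccr2 was measured with its ligands Ccl2, Ccl7 and Ccl12, which lie together at chr11:82035577-82103399 (GRCm38) in the order Ccl2, Ccl7, Ccl12. Ccr2 in sham control libraries 1 to 5 was at 6.71, 19.3, 23.2, 31.8 and 27 CPM and in sham mimic at 10.3, 16.4, 37.8, 18.5 and 30.3. Ccr2 in MOV control was at 26.3, 36, 35.7, 7.9 and 18.1 CPM and in MOV mimic at 47.6, 83.9, 45, 53.7 and 27. The highest values belonged to MOV mimic, where 4 of 5 libraries lay above all MOV control libraries, and library 5 lay among them. The log2 fold change of Ccr2 was 1.05 ± 0.37 (SE, unadjusted p = 0.0143, adjusted p = 0.999, edgeR) in MOV mimic against MOV control. It was 1.23 ± 0.34 (SE, unadjusted p = 0.00354, adjusted p = 0.272, edgeR) in MOV mimic against sham mimic and 0.25 ± 0.41 (SE) in MOV control against sham control. Exact permutation tests of the mean CPM gave two-sided p = 0.0238 and 0.0238 for the first and the second of these, where 0.00794 is the smallest p that 5 libraries against 5 allow. Leaving out each library in turn gave 0.80 to 1.22 within MOV, lowest without MOV mimic 2.

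Ccl2 in sham control libraries 1 to 5 was at 2.11, 4.53, 3.01, 7.57 and 5.99 CPM and in sham mimic at 0.367, 2.1, 4.57, 4.5 and 14.5. Ccl2 in MOV control was at 4.09, 4.51, 3.53, 3.79 and 3.78 CPM and in MOV mimic at 2.07, 22, 5.59, 21.5 and 4.42. In MOV mimic, libraries 2 and 4 stood far above the other 3, and MOV control libraries lay within a narrow range. Ccl7 in sham control libraries 1 to 5 was at 0.905, 4.6, 4.78, 9.56 and 9.83 CPM and in sham mimic at 0.808, 2.28, 7.46, 6.73 and 30.8. Ccl7 in MOV control was at 8.13, 7.78, 6.74, 6.45 and 2.98 CPM and in MOV mimic at 7.84, 34.1, 10.2, 27.3 and 12.1. Ccl7 in MOV mimic was above all MOV control libraries in 4 of 5, again highest in libraries 2 and 4, and sham mimic 5 lay between these. Ccl7 had a log2 fold change of 1.5 ± 0.41 (SE, unadjusted p = 0.00283, adjusted p = 0.999, edgeR) and Ccl2 of 1.5 ± 0.54 (SE, unadjusted p = 0.0158, adjusted p = 0.999, edgeR) in MOV mimic against MOV control, with exact permutation p of 0.0159 and 0.214. Ccl12 in sham control libraries 1 to 5 was at 0.151, 2.02, 0.806, 2.24 and 2.41 CPM and in sham mimic at 0.22, 0.818, 0.457, 3.12 and 3.46. Ccl12 in MOV control was at 1.61, 3.14, 0.467, 1.83 and 0.872 CPM and in MOV mimic at 2.53, 7.47, 0.879, 4.26 and 1.69. Ccl12 did not pass the test, with 1.08 ± 0.63 (log2, SE) within MOV, 0.56 without MOV mimic 2, and overlapping groups, and library 2 was highest in both MOV groups. Ccr2 and its 3 ligands were thus all highest in MOV mimic 2. In MOV mimic 1, Ccr2 lay above all MOV control libraries and Ccl2 and Ccl7 did not.

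Ccl5 in sham control libraries 1 to 5 was at 0.528, 1.32, 6.02, 3.27 and 1.3 CPM and in sham mimic at 1.47, 1.99, 7.002, 1.2 and 1.15. Ccl5 in MOV control was at 6.48, 11.8, 4.87, 2.91 and 3.85 CPM and in MOV mimic at 24.1, 40.1, 4.27, 15.4 and 2.53. Ccl5 (chr11:83525778-83530518), a chemokine made by T and NK cells, was at 17.3 ± 15.5 CPM in MOV mimic against 2.56 ± 2.5 in sham mimic (SD, n = 5), and MOV mimic 3 and 5 stayed within the range of the other groups. Its log2 fold change was 2.79 ± 0.74 (SE, unadjusted p = 0.00244, adjusted p = 0.267, edgeR) for MOV in mimic muscles, 1.3 ± 0.57 (SE, unadjusted p = 0.0393, adjusted p = 0.245, edgeR) for MOV in control muscles and 1.52 ± 0.63 (SE, unadjusted p = 0.03002, adjusted p = 0.999, edgeR) for the mimic within MOV. Exact permutation p-values of these 3 comparisons were 0.0556, 0.0794 and 0.159. Without MOV mimic 2 the last fold change was 0.95. For MOV the log2 fold change was 3.6 in mimic muscles without sham mimic 3 and 1.93 in control muscles without sham control 3.

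Ccl3 and Ccl4, chemokines of activated macrophages and T cells, overlap in the annotation and were near the detection limit. Ccl3 in sham control libraries 1 to 5 was at 0, 0.378, 0.323, 0.787 and 0.26 CPM and in sham mimic at 0, 0.234, 0.507, 1.03 and 0.385. Ccl3 in MOV control was at 1.12, 2.58, 0.259, 0 and 0.145 CPM and in MOV mimic at 0.658, 1.59, 0.816, 1.78 and 0.13. Ccl3 was highest in MOV control 2. Ccl4 in sham control libraries 1 to 5 was at 0, 0.315, 0.591, 0.726 and 0.26 CPM and in sham mimic at 0.147, 0.0584, 0.507, 0.535 and 0.513. Ccl4 in MOV control was at 1.61, 1.03, 0.518, 1.07 and 0.218 CPM and in MOV mimic at 0.0506, 2.99, 0, 2.27 and 0.26. Groups overlapped for both genes. Ccr1, a receptor of monocytes and neutrophils, binds Ccl3, Ccl5, Ccl6, Ccl7 and Ccl9. Ccr1 in sham control libraries 1 to 5 was at 0.452, 3.09, 0.86, 7.87 and 5.6 CPM and in sham mimic at 0.514, 2.28, 1.78, 4.06 and 8.72. Ccr1 in MOV control was at 2.39, 1.68, 3.06, 0.632 and 1.53 CPM and in MOV mimic at 0.86, 4.3, 3.2, 10.6 and 2.73. Its lowest mean was in MOV control, and MOV mimic differed from it by 1.22 ± 0.602 on the log2 scale (SE, unadjusted p = 0.064, edgeR) and by 0.56 without MOV mimic 4. Ccl6 in sham control libraries 1 to 5 was at 10.3, 29.5, 18.5, 43.2 and 57 CPM and in sham mimic at 10.6, 11.7, 28, 24.5 and 29.6. Ccl6 in MOV control was at 13.9, 24.4, 29.97, 6.82 and 14 CPM and in MOV mimic at 19.3, 24.7, 50.9, 14.5 and 20.6. Ccl6 was highest in sham control 5 and MOV mimic 3 and lowest in MOV control 4, with wide overlap of the groups. Ccl9 in sham control libraries 1 to 5 was at 7.09, 22.4, 12.3, 27.4 and 35.2 CPM and in sham mimic at 7.93, 8.01, 19.99, 24 and 28. Ccl9 in MOV control was at 13, 17.2, 27.4, 3.79 and 11.2 CPM and in MOV mimic at 15, 20.5, 44.6, 7.18 and 16.6. Ccl9, its neighbour on chromosome 11, was highest in MOV mimic 3 and sham control 5 and lowest in MOV control 4, the libraries in which Ccl6 was highest and lowest. Ccl8, a ligand of Ccr8 in mouse, had lowest, median and highest values of 5.58, 39.9 and 72.1 CPM in sham control, 6.24, 25.4 and 54.7 in sham mimic, 12.6, 22.1 and 52.6 in MOV control and 25, 37 and 78.6 in MOV mimic, and its log2 fold changes were 0.64 ± 0.396 for the mimic within MOV and -0.43 ± 0.54 for MOV in control muscles.

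**Figure D3:**
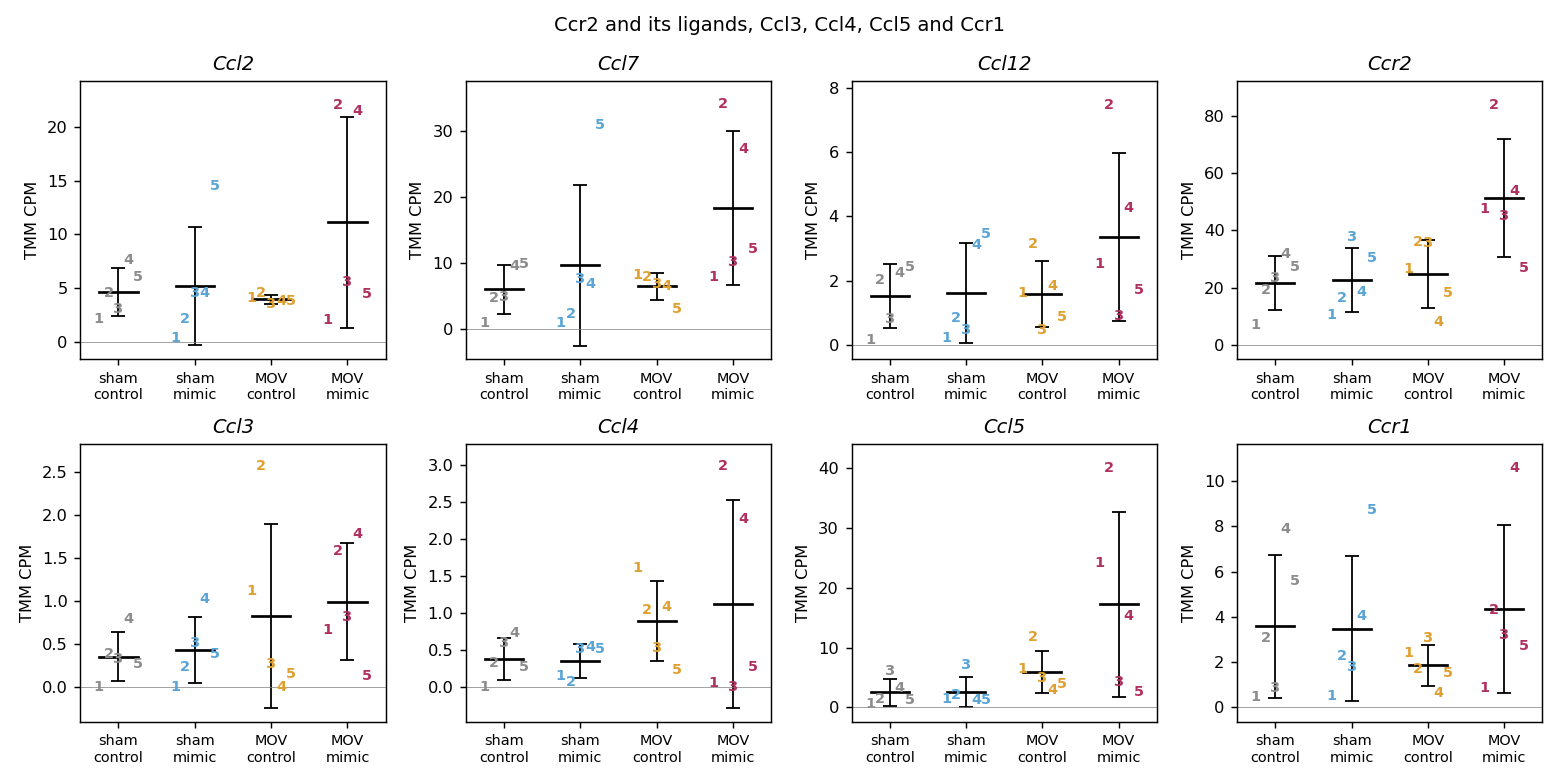
TMM CPM of Ccr2 and its ligands, Ccl3, Ccl4, Ccl5 and the receptor Ccr1 in each library (vertical axis), where each digit is the number of a library, the line is the group mean and the bar is the SD (n = 5). Library 2 is the highest MOV mimic value for 6 of the 8 genes, all but Ccl3 and Ccr1.

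Cxcl9 and Cxcl10, chemokines that interferon induces and that attract T and NK cells through Cxcr3, gave the largest positive fold changes of the comparison of MOV with sham in mimic muscles along with Ccl5. Their promoter windows, 250 bases before to 50 after the start of the gene (RefSeq, GRCm38.p6), are printed because both genes were highest in the same MOV mimic libraries, given below. Capitals mark letters of an interferon-stimulated response element (ISRE, searched as GAAANNGAAA), an interferon gamma activated site (GAS, TTCNNNGAA) or the NF-kB consensus, on either strand.
Cxcl9, chr5:92328030-92328329, minus strand: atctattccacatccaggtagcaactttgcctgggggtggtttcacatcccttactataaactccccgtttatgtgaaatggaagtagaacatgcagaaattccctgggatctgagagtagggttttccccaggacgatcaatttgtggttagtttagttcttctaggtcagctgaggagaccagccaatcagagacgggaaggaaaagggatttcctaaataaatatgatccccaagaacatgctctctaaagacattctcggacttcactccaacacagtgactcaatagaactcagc
Cxcl10, chr5:92348840-92349139, minus strand: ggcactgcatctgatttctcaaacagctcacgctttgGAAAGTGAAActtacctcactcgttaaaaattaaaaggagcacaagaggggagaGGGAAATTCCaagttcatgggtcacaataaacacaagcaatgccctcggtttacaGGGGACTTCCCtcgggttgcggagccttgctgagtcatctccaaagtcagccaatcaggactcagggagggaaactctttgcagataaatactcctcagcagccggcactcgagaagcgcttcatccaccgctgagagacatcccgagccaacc
The Cxcl10 window held an ISRE from base 38 and NF-kB matches from bases 92, 147 and 148, the last of which overlap. The Cxcl9 window held none of these letters. Only these letters were searched, so that elements that differ from them would not be found. Of 32851 promoter windows, 3.44% held the ISRE, 8.3% the GAS and 8.46% the NF-kB consensus. Of the 41 members with a window, 3 held the ISRE (Ccl19, Cxcl10 and Cxcl14), 3 the GAS (Ccl17, Ccr6 and Cxcl14) and 12 the NF-kB consensus, among them the neutrophil chemokines Cxcl1, Cxcl2 and Cxcl3.

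Cxcl9 in sham control libraries 1 to 5 was at 3.02, 2.2, 8.82, 5.14 and 16.4 CPM and in sham mimic at 4.85, 5.84, 14.6, 2.72 and 40.4. Cxcl9 in MOV control was at 15.5, 77.9, 8.5, 62.4 and 6.03 CPM and in MOV mimic at 50.4, 366, 9.48, 242 and 3.96. Within both MOV groups libraries 2 and 4 were the highest, by a wide margin in MOV mimic, whereas MOV mimic 3 and 5 were at the level of sham muscles. Cxcl9 differed by 3.35 ± 1.11 (SE, unadjusted p = 0.0101, adjusted p = 0.29, edgeR) on the log2 scale for MOV in mimic muscles, by 2.3 ± 0.73 (SE, unadjusted p = 0.0081, adjusted p = 0.131, edgeR) for MOV in control muscles and by 1.98 ± 1.03 (SE) for the mimic within MOV. Exact permutation p-values of these 3 comparisons were 0.119, 0.103 and 0.349. Without MOV mimic 2 the difference within MOV was 1.18, and that for MOV in mimic muscles was 2.54 without MOV mimic 2 and 4.3 without sham mimic 5. Cxcl10 in sham control libraries 1 to 5 was at 1.13, 1.7, 2.53, 2.3 and 11.7 CPM and in sham mimic at 1.54, 2.51, 6.29, 1.25 and 9.23. Cxcl10 in MOV control was at 5.94, 6.57, 3.21, 17.7 and 3.13 CPM and in MOV mimic at 7.23, 63.7, 5.71, 30.5 and 3.9. Cxcl10, whose gene overlaps Art3, was again highest in MOV mimic 2 and 4. It differed by 2.46 ± 0.798 (SE, unadjusted p = 0.0089, adjusted p = 0.288, edgeR) for MOV in mimic muscles and by 1.61 ± 0.73 (SE, unadjusted p = 0.0451, adjusted p = 0.999, edgeR) for the mimic within MOV, with exact permutation p of 0.119 and 0.238, and these differences were 1.55 and 0.70 without MOV mimic 2. Cxcr3 in sham control libraries 1 to 5 was at 0.528, 0.252, 1.94, 0.908 and 0.391 CPM and in sham mimic at 0.882, 1.4, 1.42, 0.624 and 0.449. Cxcr3 in MOV control was at 0.633, 1.63, 1.66, 0 and 1.45 CPM and in MOV mimic at 5.72, 5.32, 3.52, 0 and 1.23. Their receptor Cxcr3 did not follow its ligands library by library: in MOV mimic it was highest in libraries 1 and 2 and at 0 in library 4, and in MOV control it was at 0 in library 4, where Cxcl9 was at 62.4 CPM. In MOV mimic, Cxcr3 was at 3.16 ± 2.5 CPM (SD, n = 5) and its difference to MOV control was 1.55 ± 0.99 on the log2 scale (SE).

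Cxcl16, a membrane-bound chemokine of macrophages and dendritic cells, pairs with Cxcr6 (chr9:123806477-123811754) of memory T and NK T cells. Cxcl16 in sham control libraries 1 to 5 was at 4.15, 8.88, 17.6, 17.5 and 11.1 CPM and in sham mimic at 2.42, 10.3, 19.3, 11.3 and 15.5. Cxcl16 in MOV control was at 22.8, 22.3, 20.3, 14.2 and 8.94 CPM and in MOV mimic at 29.6, 44.9, 15.2, 37.1 and 14.2. MOV mimic 1, 2 and 4 lay above every sham mimic library, and the log2 fold change for MOV in mimic muscles was 1.3 ± 0.45 (SE, unadjusted p = 0.0125, adjusted p = 0.293, edgeR), with an exact permutation p of 0.0635. Cxcr6 in sham control libraries 1 to 5 was at 0.452, 0.378, 1.24, 0.968 and 0.391 CPM and in sham mimic at 0.735, 1.11, 1.42, 0.847 and 0.769. Cxcr6 in MOV control was at 1.36, 2.19, 0.363, 0.569 and 2.84 CPM and in MOV mimic at 4.86, 3.41, 1.57, 5.4 and 1.95. All 5 MOV mimic libraries exceeded all 5 sham mimic libraries, with 1.85 ± 0.46 (SE, unadjusted p = 0.0014, adjusted p = 0.267, edgeR) and an exact permutation p of 0.00794, the smallest possible. In control muscles MOV differed from sham by 1.1 ± 0.596 and within MOV the mimic differed by 1.25 ± 0.59 (log2, SE), with exact permutation p of 0.159 and 0.0714. Cxcl16 overlaps Zmynd15 and Cxcr6 overlaps Fyco1 in the annotation, and without a stated strand setting their reads cannot be told apart. Xcr1 in sham control libraries 1 to 5 was at 0.377, 1.26, 3.44, 2.18 and 1.37 CPM and in sham mimic at 0.514, 1.87, 0.863, 0.669 and 1.28. Xcr1 in MOV control was at 2.58, 2.06, 1.14, 1.9 and 3.05 CPM and in MOV mimic at 2.73, 3.08, 2.7, 3.55 and 0.91. Xcr1 marks cross-presenting dendritic cells, and 4 of 5 MOV mimic libraries were above all sham mimic libraries, with 1.36 ± 0.501 (SE, unadjusted p = 0.0181, adjusted p = 0.309, edgeR) and an exact permutation p of 0.0238. Its ligand Xcl1 had 90 counts in all, 52 of them in a single library.

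Fractalkine, Cx3cl1 (chr8:94772180-94782427), is tethered to the membrane of endothelium and other cells and binds Cx3cr1 of patrolling monocytes and macrophages. Cx3cl1 in sham control libraries 1 to 5 was at 2.64, 4.28, 8.49, 6.23 and 5.21 CPM and in sham mimic at 5.58, 18.9, 2.28, 2.99 and 6.92. Cx3cl1 in MOV control was at 14, 9.92, 15.2, 29.3 and 9.23 CPM and in MOV mimic at 7.03, 10.2, 12.2, 15.3 and 1.1. All 5 MOV control libraries lay above all 5 sham control libraries, with 1.57 ± 0.35 (SE, unadjusted p = 0.00074, adjusted p = 0.063, edgeR) on the log2 scale and an exact permutation p of 0.00794. Leaving out each library gave 1.19 to 1.79, with an adjusted p under 0.05 in 2 of 10 such fits (without sham control 3 and without MOV control 5). In mimic muscles the groups overlapped, with 0.36 ± 0.63 (SE), and sham mimic 2 was the highest and MOV mimic 5 the lowest value of these groups. Without sham mimic 2 this difference was 1.08. The interaction, which compares the effect of MOV between mimic and control muscles, was -1.2 ± 0.78 (SE, unadjusted p = 0.14, edgeR), and -0.48 without sham mimic 2. Cx3cr1 in sham control libraries 1 to 5 was at 0.905, 4.91, 7.04, 5.57 and 3.65 CPM and in sham mimic at 1.84, 6.08, 3.81, 3.48 and 4.23. Cx3cr1 in MOV control was at 10.6, 7.35, 5.34, 2.09 and 3.85 CPM and in MOV mimic at 8.19, 11.4, 5.71, 4.41 and 4.48. Cx3cr1 differed by 0.86 ± 0.36 (SE, unadjusted p = 0.0323, adjusted p = 0.34, edgeR) for MOV in mimic muscles and by 0.46 ± 0.49 in control muscles, with overlapping groups and exact permutation p of 0.0714 and 0.437.

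**Figure D4:**
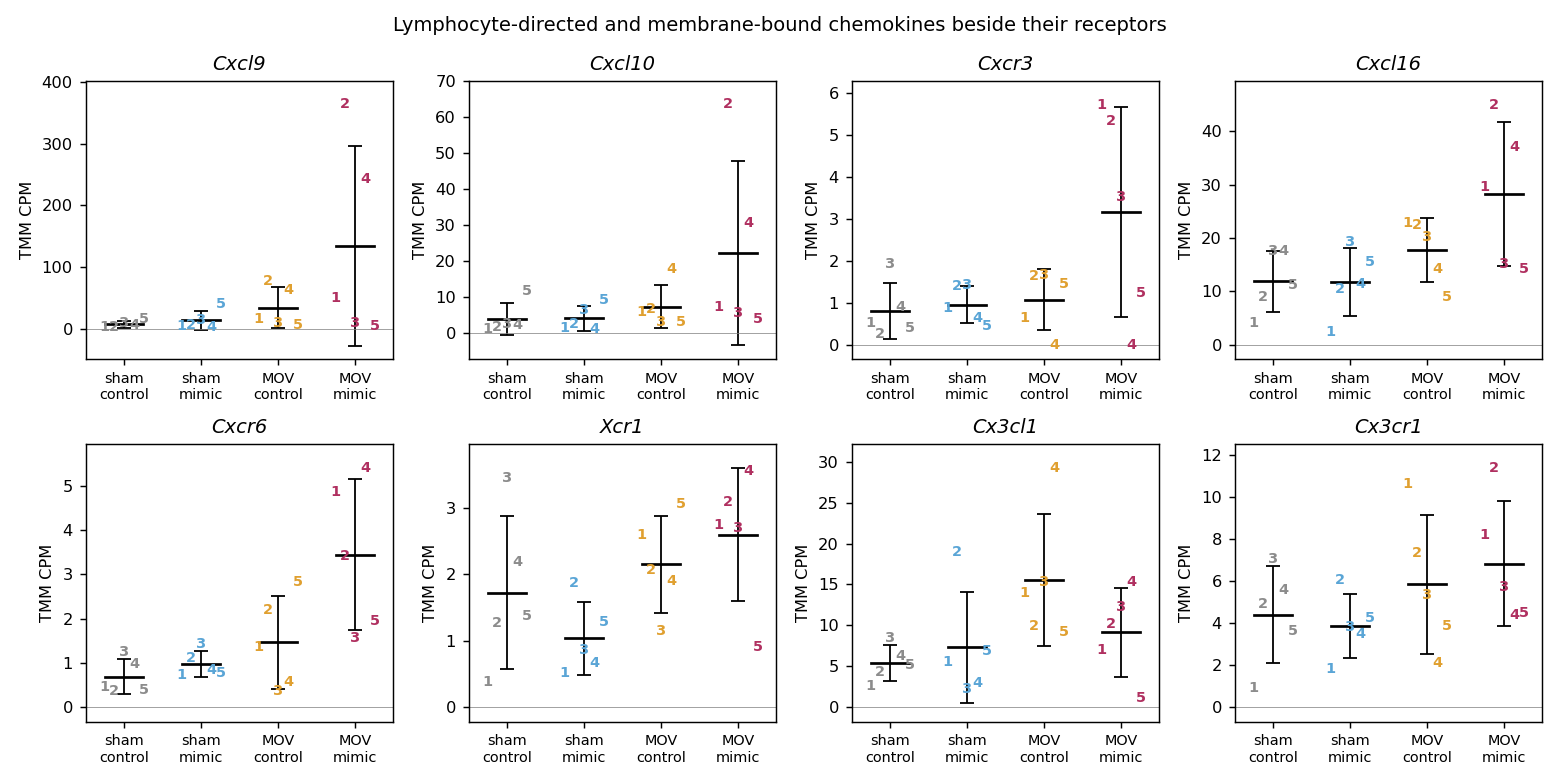
TMM CPM of Cxcl9, Cxcl10, Cxcl16, Cx3cl1 and the receptors Cxcr3, Cxcr6, Xcr1 and Cx3cr1 in each library (vertical axis), where each digit is the number of a library, the line is the group mean and the bar is the SD (n = 5). Libraries 2 and 4 of MOV mimic carry most of the Cxcl9 and Cxcl10 signal, whereas all 5 MOV mimic libraries are above the sham mimic libraries for Cxcr6.

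Cxcl12 (chr6:117168535-117181368), the stromal chemokine of Cxcr4 that Ackr3 removes, had lower means in both MOV groups. Cxcl12 in sham control libraries 1 to 5 was at 94.9, 159, 119, 163 and 131 CPM and in sham mimic at 92.1, 92.9, 138, 159 and 172. Cxcl12 in MOV control was at 109, 87.6, 95.9, 59.6 and 51.8 CPM and in MOV mimic at 71, 100.1, 89, 67.5 and 84.9. The log2 fold changes were -0.67 ± 0.22 (SE, unadjusted p = 0.00927, adjusted p = 0.137, edgeR) in control muscles and -0.63 ± 0.19 (SE, unadjusted p = 0.00628, adjusted p = 0.285, edgeR) in mimic muscles, with exact permutation p of 0.0238 and 0.0397. Within MOV the mimic and control groups differed by 0.02 ± 0.21 (SE). Ackr3 in sham control libraries 1 to 5 was at 22.9, 31.7, 26.1, 47.4 and 57.8 CPM and in sham mimic at 29.8, 23.6, 30.4, 58.2 and 45.8. Ackr3 in MOV control was at 17.2, 17.6, 31.8, 13.5 and 16.5 CPM and in MOV mimic at 21.3, 19.5, 27.2, 20.4 and 28.3. Ackr3 was lower by a like amount, with -0.895 ± 0.28 (SE, unadjusted p = 0.00773, adjusted p = 0.129, edgeR) in control and -0.65 ± 0.23 (SE, unadjusted p = 0.0142, adjusted p = 0.2998, edgeR) in mimic muscles and exact permutation p of 0.0397 and 0.0397, and MOV control 3 stood above the other MOV control libraries. Cxcr4 in sham control libraries 1 to 5 was at 2.79, 7.12, 7.74, 7.63 and 6.12 CPM and in sham mimic at 2.79, 8.59, 7.15, 8.11 and 10.1. Cxcr4 in MOV control was at 14.3, 8.03, 8.35, 5.62 and 5.09 CPM and in MOV mimic at 11.5, 8.5, 8.6, 7.32 and 5.46. The signalling receptor Cxcr4 had positive estimates that did not pass the test, with log2 fold changes for MOV of 0.45 ± 0.33 and 0.21 ± 0.31 (SE) in control and mimic muscles. Cxcl14, which stroma also makes, had lowest, median and highest values of 22.2, 32 and 34.2 CPM in sham control, 19.1, 29.9 and 38.9 in sham mimic, 13.5, 30.2 and 34.3 in MOV control and 8.88, 32.3 and 74.9 in MOV mimic.

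Ccl11 and Ccl24 attract eosinophils through Ccr3, which was not measurable with 27 counts in 8 libraries. Ccl11 (chr11:82057832-82062955) had lowest, median and highest values of 6.02, 12.1 and 17.4 CPM in sham control, 4.73, 12.3 and 17.2 in sham mimic, 3.63, 4.67 and 6.23 in MOV control and 3.95, 5.59 and 9.01 in MOV mimic. Its log2 fold change was -1.34 ± 0.28 (SE, unadjusted p = 0.000377, adjusted p = 0.0554, edgeR) in control and -0.99 ± 0.33 (SE, unadjusted p = 0.00952, adjusted p = 0.29, edgeR) in mimic muscles, with exact permutation p of 0.0159 and 0.0317, and 4 of 5 MOV control libraries lay below every sham control library. Leaving out each library gave -1.52 to -1.20 in control muscles, with an adjusted p under 0.05 without sham control 3. Ccl24 had values of 0.269, 1.73 and 2.46 CPM in sham control, 0.769, 1.11 and 1.93 in sham mimic, 0.19, 0.291 and 0.633 in MOV control and 0, 0 and 8.1 in MOV mimic and differed by -2.02 ± 0.604 (SE, unadjusted p = 0.00551, adjusted p = 0.116, edgeR) for MOV in control muscles, with an exact permutation p of 0.0317. In mimic muscles 3 of 5 MOV libraries were at 0 CPM and MOV mimic 4 was at 8.1, so that the log2 fold change of 0.35 ± 1.33 (SE) became -4.795 without that library.

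Of the other atypical receptors, Ackr2 was among the lowest measurable members and Ackr1 among the highest receptors. Ackr2 in sham control libraries 1 to 5 was at 2.26, 1.76, 0.86, 1.39 and 1.89 CPM and in sham mimic at 2.5, 0.584, 0.812, 2.81 and 0.192. Ackr2 in MOV control was at 0.633, 0.387, 0.467, 0.0632 and 0 CPM and in MOV mimic at 1.06, 1.21, 1.26, 0 and 0. Ackr2, which clears inflammatory Ccl chemokines, was lower in all 5 MOV control libraries than in any sham control library, with -2.26 ± 0.66 (SE, unadjusted p = 0.00471, adjusted p = 0.108, edgeR) and an exact permutation p of 0.00794. In mimic muscles the difference was -0.91 ± 1.01 (SE). Ackr4 in sham control libraries 1 to 5 was at 0.0754, 1.01, 2.04, 0.968 and 3.71 CPM and in sham mimic at 1.03, 0.584, 1.37, 1.6 and 0.769. Ackr4 in MOV control was at 0.341, 0.43, 0.363, 0.505 and 0.436 CPM and in MOV mimic at 2.53, 1.49, 1.26, 0 and 1.3. Ackr4, which clears Ccl19, Ccl21 and Ccl25, had the only member interaction with an unadjusted p under 0.05, at 2.18 ± 1.04 (SE, unadjusted p = 0.049, adjusted p = 1, edgeR). It was lowest in MOV control, whose 5 values lay between 0.341 and 0.505 CPM, and MOV mimic 4 was at 0. Exact permutation p-values were 0.0476 for MOV in control muscles and 0.0476 for the mimic within MOV. In these comparisons Ackr4 did not pass the edgeR filter, and MOV control libraries held only 6 to 10 counts of it. Ackr4 overlaps Acad11 in the annotation. Ackr1 in sham control libraries 1 to 5 was at 2.79, 5.54, 3.71, 6.23 and 10.1 CPM and in sham mimic at 3.6, 2.4, 4.87, 4.73 and 12.7. Ackr1 in MOV control was at 3.94, 3.18, 6.01, 2.4 and 5.96 CPM and in MOV mimic at 5.06, 6.73, 7.47, 2.06 and 6.69. Ackr1 of venular endothelium and red cells overlapped between all groups, and -0.36 ± 0.36 and 0.02 ± 0.45 (log2, SE) were its differences for MOV.

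**Figure D5:**
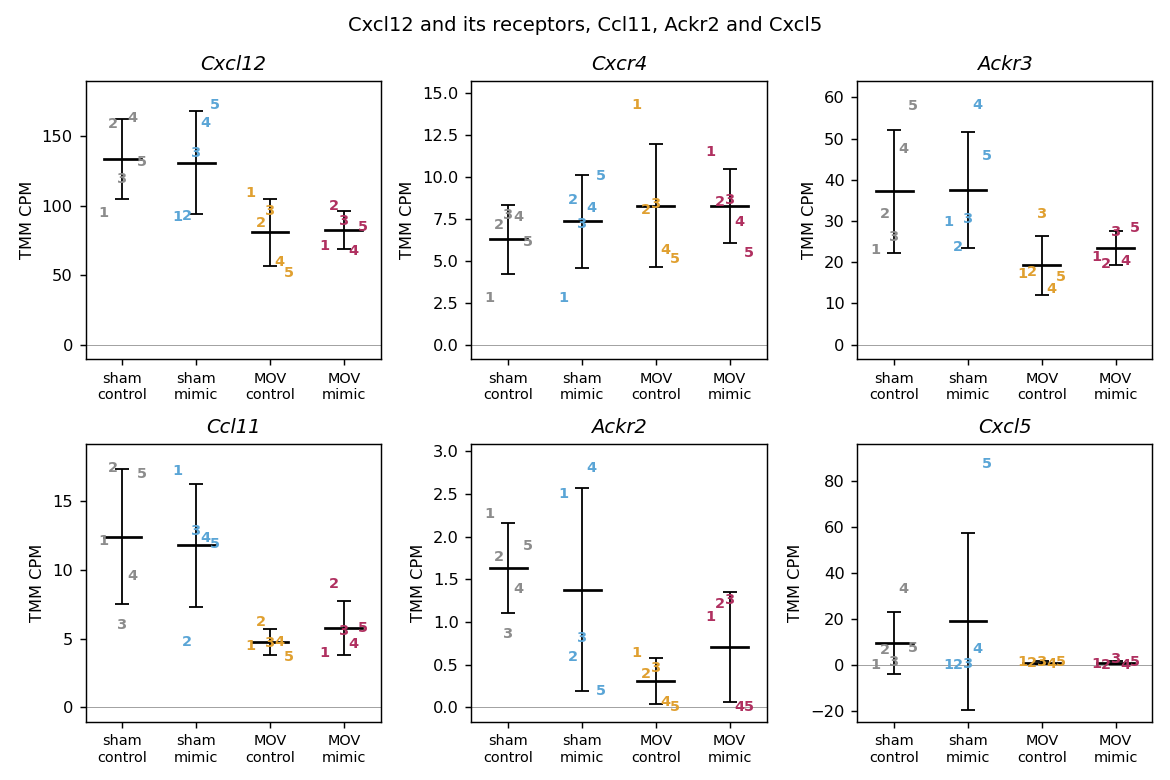
TMM CPM of Cxcl12, Cxcr4, Ackr3, Ccl11, Ackr2 and Cxcl5 in each library (vertical axis), where each digit is the number of a library, the line is the group mean and the bar is the SD (n = 5). Cxcl12, Ackr3 and Ccl11 have lower means in both MOV groups, Ackr2 does not overlap between sham control and MOV control, and Cxcl5 is high in sham control 4 and sham mimic 5.

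The neutrophil chemokines were highest in single sham libraries. Cxcl5 had lowest, median and highest values of 0, 6.42 and 33.2 CPM in sham control, 0, 0.457 and 87.4 in sham mimic, 0.379, 1.24 and 1.5 in MOV control and 0, 0.354 and 2.39 in MOV mimic, with the highest in sham control 4 and sham mimic 5. Its log2 fold change for MOV in control muscles was -3.14 ± 1.005 (SE, unadjusted p = 0.0083, adjusted p = 0.131, edgeR), with an exact permutation p of 0.143, and -1.78 without sham control 4. Cxcl1 had values of 0.326, 1.13 and 2.97 CPM in sham control, 0.22, 0.507 and 7.89 in sham mimic, 0.172, 0.758 and 1.19 in MOV control and 0, 1.04 and 2.95 in MOV mimic, with the highest in sham mimic 5. Cxcl2 had values of 0, 0.13 and 3.03 CPM in sham control, 0, 0.351 and 2.76 in sham mimic, 0.129, 0.726 and 1.27 in MOV control and 0, 0 and 1.87 in MOV mimic, with the highest in sham control 4. Cxcr2, not measurable over the 20 libraries, was at 5.93 CPM in sham control 4 and 2.56 in sham mimic 5 against at most 1.26 elsewhere. Neutrophil markers (8 of 8 with a count, Ly6g never above 3 counts at the median depth) summed to 74.7 and 46.9 CPM in those libraries and to 1.36 to 16.7 in the other 18, and their part in the chemokine values was not tested.

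The remaining pairs were those of lymphoid and epithelial homing. Ccr7 in sham control libraries 1 to 5 was at 0, 0.756, 0.806, 1.03 and 0.326 CPM and in sham mimic at 0.22, 0, 0.71, 0.624 and 0.128. Ccr7 in MOV control was at 2.05, 2.23, 1.3, 0.569 and 1.16 CPM and in MOV mimic at 0.658, 5.18, 0.691, 0 and 0.715. Ccr7 guides dendritic cells and T cells to lymph nodes, and MOV control was above all sham control libraries in 4 of 5 (exact permutation p = 0.0476), while MOV mimic 2 stood alone in its group. The Ccr7 difference for MOV in mimic muscles was 2.1 ± 1.1 (log2, SE), and 0.62 without MOV mimic 2. Ccr10 in sham control libraries 1 to 5 was at 0.528, 0.504, 0.269, 0.605 and 0.586 CPM and in sham mimic at 0.514, 0.292, 0.406, 0.535 and 1.15. Ccr10 in MOV control was at 1.02, 0.43, 0.156, 0.695 and 0.582 CPM and in MOV mimic at 1.97, 0.794, 2.64, 3.91 and 0.78. Ccr10, a skin homing receptor whose gene overlaps Cntnap1, was higher in MOV mimic, with 1.8 ± 0.66 (SE, unadjusted p = 0.0177, adjusted p = 0.999, edgeR) against MOV control and 1.83 ± 0.61 (SE, unadjusted p = 0.0104, adjusted p = 0.29, edgeR) against sham mimic and exact permutation p of 0.0397 and 0.0397. It passed the filter only in fits that held MOV mimic, the group where its mean was highest. Its selection for these tests thus depended on that group. Ccl27a in sham control libraries 1 to 5 was at 9.2, 11.4, 8.55, 7.14 and 6.12 CPM and in sham mimic at 5.58, 10.3, 7.26, 6.91 and 9.55. Ccl27a in MOV control was at 8.72, 9.97, 8.24, 16.8 and 13.4 CPM and in MOV mimic at 10.6, 6.91, 5.53, 11.5 and 7.47. Its ligand Ccl27a, which overlaps Il11ra1, was highest in MOV control 4 and differed by -0.43 ± 0.27 (SE) within MOV. Ccr9 in sham control libraries 1 to 5 was at 0.603, 0.567, 1.02, 0.242 and 0.0651 CPM and in sham mimic at 0.0735, 0.351, 0.406, 0.936 and 0. Ccr9 in MOV control was at 0.487, 0.129, 0.207, 0.505 and 0.218 CPM and in MOV mimic at 0.455, 1.21, 2.26, 1.35 and 0.26. Ccr9 was highest in MOV mimic 3. Ccl25 in sham control libraries 1 to 5 was at 5.66, 5.73, 7.2, 5.51 and 4.43 CPM and in sham mimic at 3.6, 4.27, 4.87, 6.42 and 4.68. Ccl25 in MOV control was at 4.82, 5.76, 4.77, 4.36 and 5.23 CPM and in MOV mimic at 6.53, 8.03, 4.83, 1.28 and 4.81. Ccr9, a gut homing receptor, and its ligand Ccl25 overlapped between the groups, and Ccl25 was lowest in MOV mimic 4. Ccl22, a ligand of Ccr4, ranged from 0 to 3.18 CPM and Cxcl13, the B cell chemokine, from 0 to 1.82.

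Whether the mimic altered the effect of MOV was tested by the interaction on all 20 libraries. At an unadjusted p under 0.05, 1 of 39 members (2.56%) was higher and 0 lower, where 1.3% and 1.34% of 16166 genes were. The count higher was 0 to 5 when 1 library was left out, with 5 of 41 without sham control 1 and 5 of 40 without sham mimic 5, where 1.57% and 1.42% of all genes were higher. The interaction term was above 0 for 33 of 39 members with a median of 0.75, where 48.0% of all genes were above 0 with a median of -0.014. Without sham control 1 and sham mimic 1 it was above 0 for 33 of 41 members, with a median of 0.80, and no member was called. When 1 library was left out the median ran from 0.46 without MOV mimic 2, with 29 of 40 members above 0, to 1.08 without sham mimic 5. With limma voom it was 0.39, with 26 of 39 above 0. The SE of single members ran from 0.30 for Cxcl12 to 2.03 for Cxcl5, so that interactions had to be well above these SE to be detectable with 5 libraries a group.

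Libraries differed in how often they held the highest value. MOV mimic 2 had the highest value of all 20 libraries for 15 of the 39 measurable members, MOV mimic 4 for 5 and sham mimic 5 for 4. Markers of leukocytes were summed beside the members. T cell markers (8 of 8 with counts) summed to 4.49 to 20.2 CPM in sham control, 6.02 to 15.7 in sham mimic, 3.79 to 24.1 in MOV control and 15.7 to 58.1 in MOV mimic, and all 8 were higher in MOV mimic than in sham mimic at an unadjusted p under 0.05, where 7.31% of all genes were, with a median log2 fold change of 2.49. In MOV mimic against MOV control 3 of 8 were higher, where 2.46% of all genes were. Natural killer cell markers (6 of 6) summed to 0.679 to 6.02 CPM in sham control, 2.1 to 8.98 in sham mimic, 3.66 to 12.8 in MOV control and 4.87 to 48.3 in MOV mimic and dendritic cell markers (6 of 6) to 18.7 to 27.5 CPM in sham control, 17.3 to 28.1 in sham mimic, 17.6 to 34.6 in MOV control and 20.5 to 60.6 in MOV mimic. Of these, 3 of 4 natural killer and 4 of 6 dendritic cell markers tested were higher in MOV mimic than in sham mimic at that threshold, and 3 of 5 and 2 of 6 in MOV mimic than in MOV control. For MOV in control muscles 1 of 8 T cell, 2 of 2 natural killer and 0 of 6 dendritic cell markers tested were higher, where 9.06% of all genes were. There 1 dendritic cell marker was lower, against 9.15% of all genes. Macrophage and monocyte markers (12 of 12) summed to 140.5 to 544 CPM in sham control, 154 to 484 in sham mimic, 153 to 479 in MOV control and 268 to 607 in MOV mimic, and 3 of 12, C1qa, C1qc and Ly6c2, were higher in MOV mimic than in sham mimic at that threshold, as were 3 of 12, Itgam, C1qc and Ly6c2, in MOV mimic than in MOV control. In MOV control against sham control, 1 of the 12 had a fold change above 0, with a median of -0.33. Of neutrophil markers 3 were tested, with medians of -1.52 and -1.54 for MOV in control and mimic muscles, and none passed that threshold, nor did a B cell marker. MOV mimic 2 had the highest sum of macrophage, natural killer and dendritic cell markers, and MOV mimic 1 of T cell markers. The part of these cells in the chemokine values was not tested.

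Endothelial markers (6 of 6) summed to 265 to 324 CPM in sham control, 300.2 to 393 in sham mimic, 150.4 to 291 in MOV control and 216 to 249 in MOV mimic. At an unadjusted p under 0.05, 3 of 6 (Pecam1, Kdr and Tek) were lower for MOV in control muscles. In mimic muscles 4 of 6 were, these and Cdh5, where 9.15% and 6.08% of all genes were lower. Of the 6, 1 had a fold change above 0 in control and 0 in mimic muscles. Cxcl12 and Ackr3 were also lower there, and the part of endothelial cells in their values was not tested. Fibro-adipogenic markers (6 of 6) summed to 944 to 8381 CPM in sham control, 1342 to 7477 in sham mimic, 2398 to 8892 in MOV control and 4015 to 7917 in MOV mimic, B cell markers (4 of 4) to 0.846 to 2.37 CPM in sham control, 0.0735 to 2.79 in sham mimic, 0.442 to 2.44 in MOV control and 0.39 to 3.83 in MOV mimic and red cell markers (3 of 5 matched) to 33 to 90.04 CPM in sham control, 27.1 to 87.9 in sham mimic, 11.8 to 52.5 in MOV control and 16.1 to 64.5 in MOV mimic. For MOV in control muscles, 3 of 3 red cell and 1 of 6 fibro-adipogenic markers were lower at an unadjusted p under 0.05, where 9.15% of all genes were. In mimic muscles 0 of either list were lower at that threshold, against 6.08%. No gene of these lists had an adjusted p under 0.05 in any comparison. Marker genes other than the first 3 of a list were named after their values were seen.

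Genes that act downstream of chemokine receptors (46, among them Gnai2, Gnb1 and Gng2 of the G protein) were taken as a list. For MOV in mimic muscles 17 of 46 were higher and 1 lower at an unadjusted p under 0.05, where 7.31% and 6.08% of all genes were, with a median log2 fold change of 0.34. In control muscles 3 of 45 were higher and 2 lower, where 9.06% and 9.15% of all genes were, with a median of 0.10. For the mimic within MOV 9 of 46 were higher and 0 lower, against 2.46% and 1.75% of all genes, with a median of 0.44. For the mimic within sham 0 of 44 passed, against 0.563% and 1.16%, with a median of 0.025. The interaction had 2 of 46 higher and 0 lower, against 1.3% and 1.34%. None had an adjusted p under 0.05. Of 6 chemokine-related genes outside the symbol rule (among them the platelet chemokines Pf4 and Ppbp), 5 were tested, and 2, Ccrl2 and Pitpnm3, were lower for MOV in control muscles and 1, Pitpnm3, in mimic muscles at an unadjusted p under 0.05, where 9.15% and 6.08% of all genes were lower.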

How the data were processed

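RNA-seq was carried out on total RNA of 20 plantaris muscles, 5 per group. The values used are raw read counts for each Ensembl gene, as the authors deposited them, in 1 table for control and 1 for mimic virus. Per the paper's methods and the submitters' processing notes, reads were trimmed with Trim Galore 0.6.10 and cutadapt 4.4, aligned with HISAT2 2.0.5 to GRCm38 and counted with featureCounts 1.5.0-p3. Annotation release, strand setting and the treatment of reads with several alignments are not given in the sources used here. Reads of close paralogs (Ccl6 and Ccl9, Ccl3 and Ccl4) and of the 19 members that overlap another gene may therefore be shared.

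Library totals were 12036360 to 23056525, and their size sets the precision of low genes. A floor of 3 counts at the median depth covers counting error only. Genes were tested with edgeR 4.0.16 (quasi-likelihood test, two-sided, TMM, filterByExpr) on the 10 libraries compared, or on 20 for the interaction. P-values were adjusted by Benjamini-Hochberg over all genes tested, with 0.05 as threshold. SE was taken as the size of the log2 fold change divided by the square root of F. Single genes were tested with exact permutation tests of CPM over all divisions of the 10 libraries. Values per kb used exon lengths of GENCODE models. DESeq2 1.42.0, limma 3.58.1 and other alternatives are given at the end. The fits were tested on simulated data. R 4.3.3, Python 3.11.15 and matplotlib 3.10.9 were used.

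Members and lists were chosen with earlier results of these data known. One member is included in the counts and medians but is not reported here. Every other measurable member could be named, with values in every library for measurable receptors and their listed ligands, and genes outside the members came from marker and signalling lists.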

Additional observations from a re-analysis of the deposited data

Results flagged for a closer look

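Values that lay far from the other 4 libraries of their group were sought with Dixon's ratio in 156 sets of 5 libraries (39 measurable members in 4 groups). For normally distributed values chance marks about 1 set in 20, but these CPM were not on a log scale and their distribution was not checked. The ratio marked 17 values of 15 genes. Sham mimic 5 held 5 of them, all highest in the group, with Cxcl5 at 87.4 CPM (next 6.91), Ccl7 at 30.8 (next 7.46), Ackr1 at 12.7 (next 4.87), Cxcl1 at 7.89 (next 1.34) and Ccr10 at 1.15 (next 0.535). Sham control 4 was highest for Cxcl5 at 33.2 (next 7.55) and Cxcl2 at 3.03 CPM (next 0.441). Sham mimic 3 was highest for Ccl5 at 7.0 (next 1.99) and Ccl22 at 2.38 CPM (next 0.833). Among the other sham libraries, sham control 5 was highest for Cxcl10 at 11.7 (next 2.53), sham mimic 2 for Cx3cl1 at 18.9 (next 6.92), and sham control 3 was lowest for Cxcl14 at 22.2 CPM (next 31.5).

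In MOV mimic, library 4 was highest for Ccl24 at 8.1 (next 0.14), library 2 for Ccr7 at 5.18 (next 0.715) and library 3 for Ccl6 at 50.9 CPM (next 24.7). In MOV control, library 3 was highest for Ackr3 at 31.8 (next 17.6) and library 4 for Cxcl10 at 17.7 CPM (next 6.57). No member's interaction of surgery and virus had an adjusted p under 0.05, so that no difference between the effects of MOV in control and mimic muscles was marked.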

How the results depend on the processing

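The count of members with an adjusted p under 0.05 was 0 in each comparison with edgeR. For MOV in control muscles it was 6 with DESeq2, 3 with DESeq2 and a replicate block, 2 without a filter, 1 with at least 10 counts in total, 2 with limma voom and quality weights, and 0 to 3 when a library was left out (3 without sham control 3, 1 without MOV control 5). Over all genes the count of 1 became 913 with DESeq2, 722 with its block, 388 without a filter, 163 with at least 10 counts, 946 with voom, 36 with all 20 libraries in the fit and 0 to 426 when a library was left out. For MOV in mimic muscles it was 3 members with DESeq2 and 3 with its block, and over all genes 223 and 114, with 17 by voom, 3 with all 20 libraries in the fit, 1 without a filter and 0 to 101 when a library was left out. For the mimic within MOV it was 3 members (Ccl7 and Ccr2 among them) with DESeq2 and a replicate block and 127 genes in all, against 3 genes with DESeq2 and 1 with all 20 libraries in the fit. The interaction called 1 gene with DESeq2 and 5 with its block, none of them a member. In the other settings run the count of members stayed at 0, including leaving out sham control 1 and sham mimic 1, a setting chosen after seeing the data. Of 32 differences of single genes, that of Ccl24 for MOV in mimic muscles changed sign: it was -4.34 with voom, -3.53 with the edgeR block, -4.48 with the DESeq2 block and -4.79 to 0.68 when a library was left out. The cause was not tested, and of the MOV mimic libraries number 4 held 114 of its counts, number 2 held 3 and the others 0. When CPM were scaled by DESeq2 size factors, 8 members in place of 7 had an exact p under 0.05 for MOV in mimic muscles, and the counts for the other pairs of groups stayed at 8, 5 and 0.

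The edgeR fit with a replicate block called 0 members in every comparison. At an unadjusted p under 0.05 it gave 12 members higher and 1 lower of 34 for the mimic within MOV, in place of 7 and 0, where 3.92% and 3.3% of all genes were, in place of 2.46% and 1.75%. Equal numbers of control and mimic libraries correlated in their deviations at 0.0116 to 0.663 in sham and 0.0347 to 0.321 in MOV, with means of 0.232 and 0.163 against -0.0523 and -0.0398 for unequal numbers. All 10 equal pairs were above 0, but not every pair passed 0.1, the labels state no pairing, and not every library correlated best with its own number. The 16 members that were not measurable had at most 198 counts over the 20 libraries, where the lowest total of a measurable member was 134. The part of depth in this was not tested.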

Other observations

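Members that were not measurable over the 20 libraries had counts in some of them. Cxcr2 had 198 counts in 9 libraries, 98 of them in sham control 4. Ccl17, a ligand of Ccr4, had 113 counts in 14 libraries, Cxcr5 of B cells 94 in 15, Xcl1 of natural killer and T cells 90 in 11 and Cxcl3 of the Cxcr2 ligands 87 in 10. Ccl1 had 37, Ccr3 27, Ccr8 19, Ccr4 18, Cxcl17 17 and Ccl20 14 counts in total, and Cxcr1, Cxcl15 and Ccr6 had 5, 2 and 1.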
